A study of Arabidopsis thaliana with 10 samples.

Results

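The genes described are the 46 loci of the Arabidopsis histone families H1, H2A, H2B, H3 and H4 given as a fixed list of TAIR10 loci, of the 27444 protein-coding genes on the 5 nuclear chromosomes. They were divided into 27 replication-type genes (5 H3.1, 8 H4, 4 canonical H2A and 10 H2B), 16 variant genes (H3.3 and H3.3-like, male-gamete H3, CENH3, H2A.X, H2A.Z, H2A.W and H2B.8) and 3 linker H1 genes. H3K27ac ChIP-seq was carried out on inflorescences of pAP1::AP1-GR ap1 cal plants in the Ler background, collected before induction (S0, inflorescence meristem) and 2, 4 and 8 days after the start of daily dexamethasone treatment (S2, S4 and S8), with 2 libraries per stage and 2 input libraries as the negative control. All groups, the inputs included, carried the ap1 and cal mutations and the transgene, in which the AP1 promoter drives a fusion of AP1 to the glucocorticoid receptor, so that the AP1 protein acts once dexamethasone is applied and many flowers start together. The files analysed were 4 lists of H3K27ac peaks, 1 per stage, each called on the pooled libraries of its stage. They held 11583, 8608, 9114 and 9235 peaks, in the order of the stages. A gene was counted as having a peak when the summit, the highest point of the peak, fell in the gene or within 1 kb upstream of its transcription start site (TSS). The strength of a peak was read as its percentile of fold enrichment within its own list, where 100 is the strongest peak. The pooled lists give no value for a single library, and their depth is unknown, so that no difference between stages below has an error or a test. The tissue was a mixture of cells, in which fewer marked cells and less acetylation per cell cannot be told apart.

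Histones package DNA into nucleosomes, and the replication-type genes are known to be transcribed mainly in S phase, when new nucleosomes are needed behind the replication fork. The variants are made through the cell cycle or in particular cells. H3.3 is found at transcribed genes, CENH3 at centromeres, H2A.Z at the first nucleosomes of genes and H2A.W in heterochromatin, and H2A.X is phosphorylated where DNA is damaged. H3K27ac is a mark of active promoters that in Arabidopsis lies mostly just downstream of the TSS. Plant replication-type genes are known to carry short promoter elements, of which the octamer CGCGGATC and the hexamer ACGTCA are the best described.

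The sequences of these promoters are shown first, because the octamer was more frequent in histone promoters than in others. In the 300 bp from 250 bp before to 50 bp after the TSS, searched on both strands, CGCGGATC (reverse GATCCGCG) was found in 40 of the 27444 promoters, or 0.146%. Histone genes held 10 of these 40, and 10 of the 46 histone promoters (21.7%) had the octamer. They were 3 of 5 H3.1 genes, 2 of 8 H4 genes, 2 of 4 canonical H2A genes, 1 H3.3 gene, 1 H2A.W gene and 1 linker H1 gene. Of these genes, 9 had an H3K27ac peak at 1 or more stages, the exception being the H2A.W gene HTA6, as did 29 of all 46 histone genes, 27 of all 40 genes with an octamer and 48.4% of all protein-coding genes. The 12 octamers are printed on the strand of the gene with 11 flanking bases on each side, with the octamer or its reverse in capitals, from the TAIR10.1 genome.
AT5G65360, H3.1, chr5:26120689-26120718, minus strand: tttagacgtgaCGCGGATCactaaaattaa
AT1G09200, H3.1, chr1:2972406-2972435, minus strand: tcgtaccttcaCGCGGATCagtgttagaaa
AT1G09200, H3.1, chr1:2972335-2972364, minus strand: ctgtgatttcaCGCGGATCgtgatagaaac
AT5G10400, H3.1, chr5:3271059-3271088, minus strand: ttaacacaggaCGCGGATCgtaaagataca
AT4G40040, H3.3, chr4:18558944-18558973, minus strand: tttatttcagcGATCCGCGacggtttgtat
AT1G07660, H4, chr1:2368696-2368725, plus strand: tacagatttcaCGCGGATCgcaatcttgga
AT5G59690, H4, chr5:24051392-24051421, plus strand: cactgccatcaCGCGGATCactaatatgaa
HTA10 (AT1G51060), H2A, chr1:18926726-18926755, plus strand: attcactctgaCGCGGATCctgaatctcga
HTA10 (AT1G51060), H2A, chr1:18926790-18926819, plus strand: tgataaacagcGATCCGCGtagtttcttct
HTA13 (AT3G20670), H2A, chr3:7229311-7229340, plus strand: gcagtaacatcGATCCGCGtgattgtttat
HTA6 (AT5G59870), H2A.W, chr5:24116318-24116347, minus strand: atacatagtcaCGCGGATCgtgctttattt
AT1G06760, H1, chr1:2077777-2077806, minus strand: aaaagagtagcGATCCGCGtagtcattgtt
The H3.1 gene AT1G09200 and the H2A gene HTA10 (AT1G51060) each had a pair of octamers. In the H3.1 and H4 genes every octamer was in the sense direction, and its first base lay between 126 and 19 bp before the TSS. The whole promoter of AT5G10400, chr5:3270908-3271207 on the minus strand, is shown as the example in which an H3.1 gene with an octamer had a peak at every stage. It also holds the hexamer ACGTCA in reverse (TGACGT), upstream of the octamer and printed in lower case.
AT5G10400 promoter: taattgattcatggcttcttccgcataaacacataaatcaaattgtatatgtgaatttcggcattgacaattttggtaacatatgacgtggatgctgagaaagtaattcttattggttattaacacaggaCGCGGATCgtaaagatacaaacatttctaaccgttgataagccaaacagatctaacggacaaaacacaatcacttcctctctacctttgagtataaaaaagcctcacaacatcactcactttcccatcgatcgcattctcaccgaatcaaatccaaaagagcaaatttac

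The H2B genes had the other element. The hexamer ACGTCA (reverse TGACGT) was found in 9 of 10 H2B promoters, against 9.19% of all promoters and 14 of the 46 histone promoters, and no H2B promoter had the octamer. No octamer overlapped a hexamer in these genes. The hexamer was present in all 5 H2B genes with a peak and in 4 of the 5 without one, so its presence did not separate marked from unmarked H2B genes. The H2B hexamers are shown in capitals with the bases that follow them, since these often resembled the reverse octamer.
HTB1 (AT1G07790), H2B, chr1:2412896-2412923, plus strand: gagaaatatacACGTCAatgatcctcgt
HTB2 (AT5G22880), H2B, chr5:7652893-7652920, minus strand: caaaagtaaccACGTCAgctatccacgc
HTB2 (AT5G22880), H2B, chr5:7652696-7652723, minus strand: ctcatatctccACGTCAcgcatccgcgt
AT2G28720, H2B, chr2:12326747-12326774, plus strand: taacgtgatccACGTCAccaacgatact
HTB4 (AT5G59910), H2B, chr5:24126906-24126926, plus strand: caatctgggacACGTCAatag
AT2G37470, H2B, chr2:15736668-15736695, plus strand: ttatttaagccACGTCAtcgatcctcgc
AT3G53650, H2B, chr3:19889190-19889217, plus strand: ggatggatgacACGTCAtcgatccgcaa
HTB9 (AT3G45980), H2B, chr3:16898153-16898180, minus strand: ccaatattgacACGTCAtcgatcccgct
AT5G02570, H2B, chr5:577260-577287, minus strand: catctaacgacACGTCAtcgatctatgt
HTB11 (AT3G46030), H2B, chr3:16914203-16914230, minus strand: taatatattccACGTCAtcaatcctcgt
In 5 of the 8 H2B promoters whose window reached far enough, at least 6 of the 8 letters of the reverse octamer were matched 2 bases after a hexamer. Among all promoters with a hexamer and enough sequence after it, 19 of 2455 (0.774%) had such a match, and 7 of these were histone genes. This arrangement was looked for after the sites had been seen. The E2F sites TTTCCCGC (reverse GCGGGAAA) and TTTGGCGC (reverse GCGCCAAA) were present in 0 and 2 histone promoters, against 0.798% and 0.434% of all promoters. The 2 promoters with the latter were those of the H4 genes AT3G45930 and AT3G46320.

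**Figure D1:**
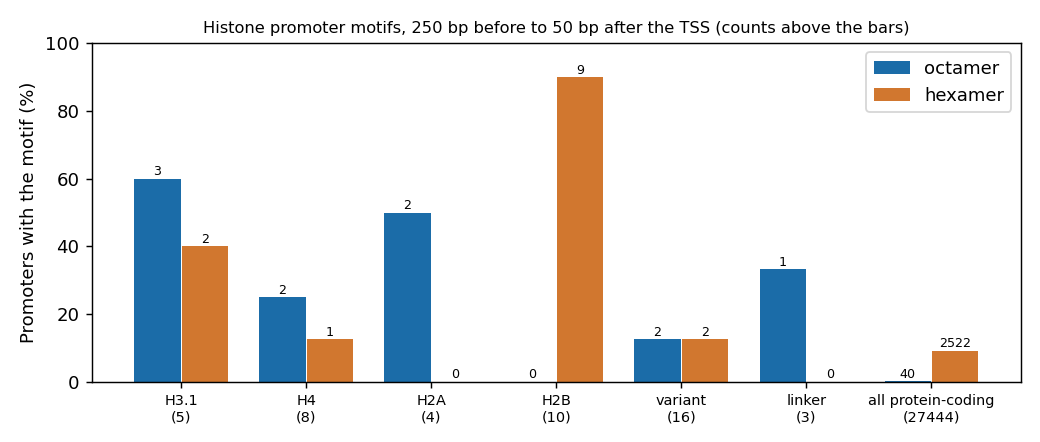
Share of promoters (in percent, vertical axis) that held the octamer or the hexamer, for each group of histone genes and for all protein-coding genes, with the number of genes in a group in parentheses and the number of promoters with the motif above each bar. The octamer was found in H3.1, H4, H2A, variant and linker promoters and in no H2B promoter, and the hexamer was found in 9 of 10 H2B promoters.

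H3K27ac peaks were found on 29 of the 46 histone genes at 1 or more stages. At each stage 13 or 14 of the 27 replication-type genes had a peak (13, 13, 14 and 13 in the order of the stages), and 8 of the 16 variant genes had one at every stage. The corresponding shares of all protein-coding genes were 43.8, 34.5, 36.4 and 36.6%. The histone shares of 48.1 to 51.9% for replication-type genes, and 8 of 16 for variants, thus lay above the genome at every stage and nearest to it at S0, where the list was longest. Linker H1 genes had 2 of 3 at S0 and S2 and 1 of 3 at S4 and S8. When only summits on no other gene were counted, 6, 5, 6 and 7 replication-type genes and 5 variant genes at each stage were left, since 46.2% of the strongest peaks on histone genes had a summit that also fell on a neighbouring gene or its upstream 1 kb, against 31.1% over all genes. The share of all protein-coding genes was not counted under this setting. Standing above the genome thus holds for the 1 kb rule, with shared summits included. Counting only summits inside the gene left 12 replication-type and 8 variant genes at every stage. For this setting too, the share of all protein-coding genes was not counted.

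Histone genes are short, and short genes seldom had a peak. Of the 4381 protein-coding genes of at most 1 kb, 14.7, 11.6, 12.1 and 12.1% had a peak in the order of the stages. Of the 21 replication-type genes of that length, 9, 10, 12 and 10 had a peak, or 42.9, 47.6, 57.1 and 47.6%. The 4 variant genes of at most 1 kb (the H3.3-like gene AT1G13370, GAMMA-H2AX, HTA6 and the H2B.8 gene AT1G08170) had no peak at any stage. The other 12 variants were longer, and 8 of them (66.7%) had a peak at every stage, against 49.4, 38.9, 41.0 and 41.3% of all genes over 1 kb at S0, S2, S4 and S8. The 6 replication-type genes over 1 kb had 4, 3, 2 and 3. The share of replication-type genes of at most 1 kb lay above that of all genes of this length at every stage, while that of the 6 longer ones lay below that of all genes over 1 kb at S4 (33.3% against 41.0%).

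**Figure D2:**
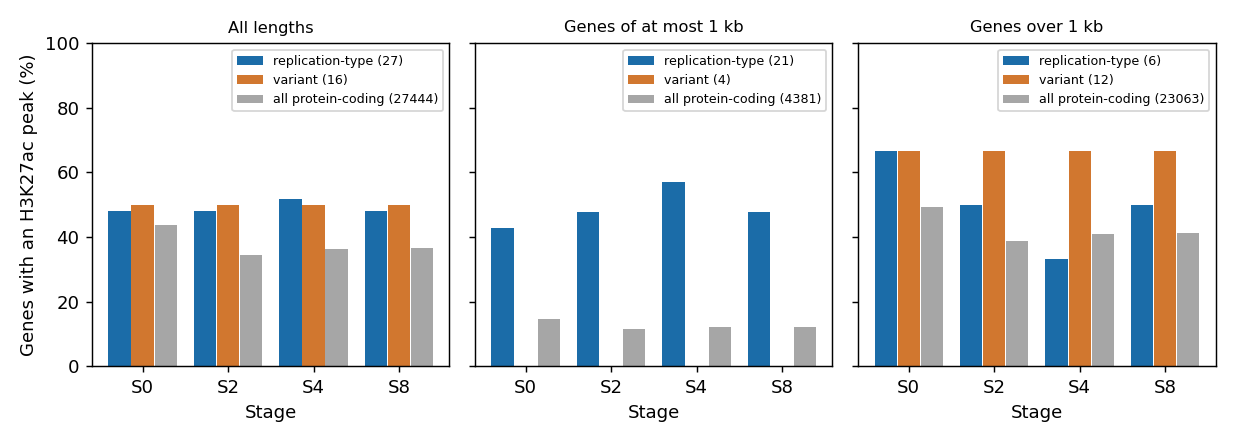
Percent of genes with an H3K27ac peak (vertical axis) at each stage for replication-type histone genes, variant histone genes and all protein-coding genes, over all lengths, for genes of at most 1 kb and for genes over 1 kb, with the number of genes in parentheses. Among genes of at most 1 kb, replication-type genes stood at 42.9 to 57.1% and all protein-coding genes at 11.6 to 14.7%, and none of the 4 variants had a peak.

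The replication-type and variant classes differed in how their genes were spread over the stages. Under the 1 kb rule variants were marked at all 4 stages or at none, with 8 genes each. With 2 kb upstream, 12, 10, 10 and 11 variants had a peak in the order of the stages and 10 at all 4, so this split did not hold. Of the replication-type genes, 8 had a peak at all 4 stages, 11 at 1 to 3 stages and 8 at none. Some of the 11, such as AT1G09200 and HTB11, had at a missing stage a peak over the gene with its summit elsewhere. Over all protein-coding genes 26.7% had a peak at all 4 stages, 21.6% at 1 to 3 and 51.6% at none. The histone genes seen at 1 to 3 stages had weak peaks, with a median percentile of 28.6 and 20 of 27 values under 50, against a median of 75.5 for the 16 histone genes seen at all 4 stages. Whether a histone gene came and went between lists therefore went together with a low rank, and the part of the limit of each list in this was not tested. The same medians were not computed over all protein-coding genes, so this is not shown to be particular to histone genes.

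**Figure D3:**
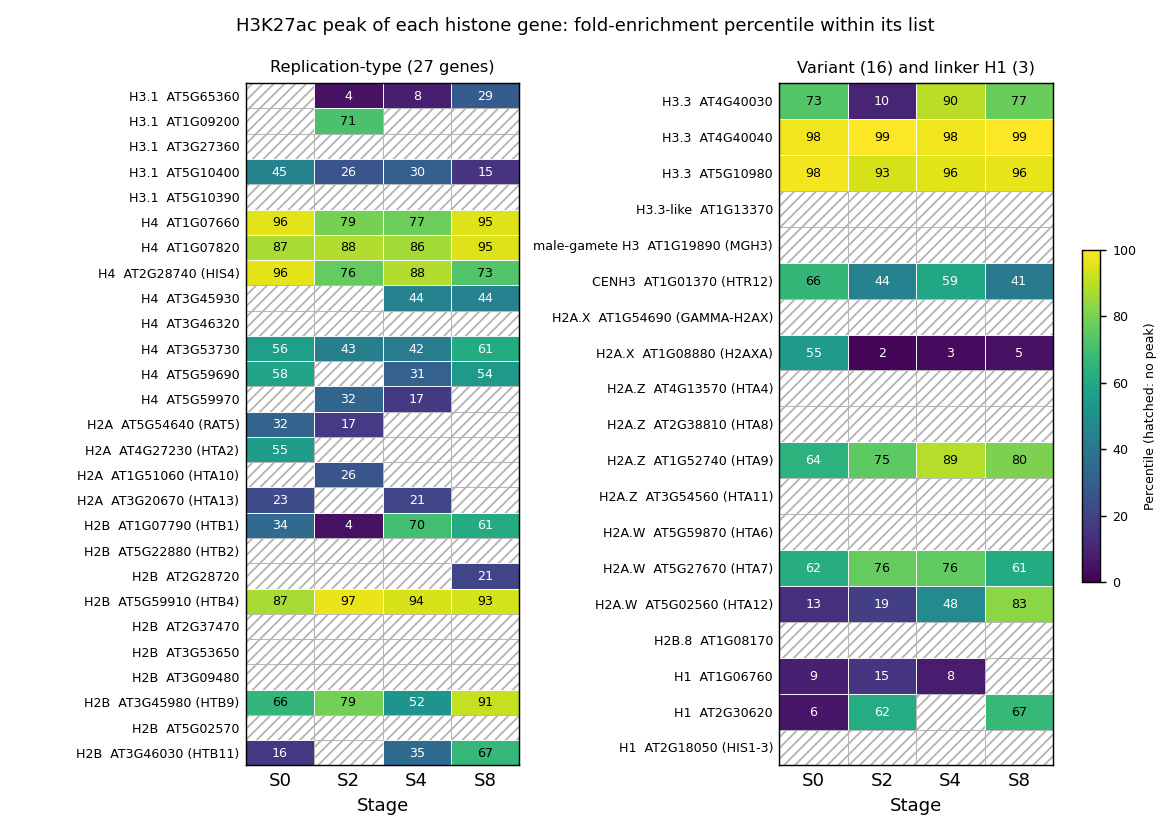
Percentile of fold enrichment within the list of its stage (colour and printed number, 100 the strongest) for the strongest H3K27ac peak of each histone gene at S0, S2, S4 and S8, with replication-type genes on the left and variant and linker genes on the right; hatched cells had no peak. The H3.3 genes AT4G40040 and AT5G10980, 3 H4 genes and the H2B gene HTB4 had no value under 72.8, and 17 genes had no peak at any stage.

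The strongest peaks of the whole family were on genes of H3.3, the replacement H3 of transcribed chromatin. All 3 H3.3 genes had a peak at every stage. AT4G40040 (chr4:18557149-18558945, minus strand) had a fold enrichment of 6.73, 6.50, 5.35 and 7.34 in the order of the stages, at percentiles of 97.7, 99.4, 97.7 and 99.5. AT5G10980 had 7.19, 4.62, 4.76 and 5.02, at percentiles of 98.4, 93.5, 95.6 and 96.2. Both were thus within the strongest peaks of each list and kept that place throughout floral induction. AT4G40030, which lies 42 bp from AT4G40040 on the same strand, had percentiles of 73.0, 9.79, 89.8 and 77.3, with its lowest value at S2, where its neighbour was at 99.4. All 12 H3.3 summits lay in introns, 336 to 579 bp from the TSS, and the peaks were broad, from 991 to 1556 bp, covering 62.9 to 96.1% of the gene. The 3 genes encode identical proteins of 136 residues, counting the shortest annotated isoform of AT4G40030, and differ from H3.1 at 4 residues.

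The 5 H3.1 genes, whose protein is deposited behind the replication fork, encode 1 identical protein but were marked very differently. AT5G10400 (chr5:3270172-3270957, minus strand) was the only H3.1 gene with a peak at all 4 stages, at percentiles of 44.8, 26.2, 30.1 and 14.9. AT5G65360 had no peak at S0 and percentiles of 4.50, 8.24 and 28.6 at S2, S4 and S8. Each of these values lay under 50, as did, among the H3.3 genes, the S2 value of AT4G40030 alone. AT1G09200 had its summit on the gene at S2 only, at a percentile of 71.1. At S0, S4 and S8 a peak covered 699, 699 and 613 bp of this 764 bp gene with its summit 1099, 1242 and 1160 bp from the TSS, past the end of the gene and on the neighbouring gene AT1G09195. The S2 value of AT1G09200 therefore marks a place of the summit, and acetylated chromatin was called over the gene at every stage. AT3G27360 and AT5G10390 had no peak at any stage, although AT5G10390 lies 577 bp downstream of AT5G10400. The 3 marked H3.1 genes were the 3 with an octamer, whereas only 2 of 7 marked H4 genes and 2 of 4 marked canonical H2A genes had one.

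No other H3 variant apart from CENH3 was marked. HTR12 (AT1G01370), which encodes CENH3 of the centromere, had percentiles of 66.2, 44.1, 59.4 and 40.8. At S0 its strongest peak had its summit 940 bp upstream, within the neighbouring abscisic acid receptor gene RCAR1, and the peak in HTR12 itself had a percentile of 50.7 and a summit 354 bp from the TSS. The H3.3-like gene AT1G13370 and MGH3, the H3 of the male gamete, had no peak at any stage. The male-gamete markers DUO1, HAP2 and GEX2 also had none, as had 51.6% of all protein-coding genes.

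Of the 8 H4 genes, 5, 5, 7 and 6 had a peak at S0, S2, S4 and S8. They encode 1 identical protein of 103 residues. HIS4 (AT2G28740, chr2:12329345-12330059, minus strand) had percentiles of 95.9, 76.3, 88.2 and 72.8, with summits 247 to 386 bp from the TSS and at most 3.53% repeated sequence around them. AT1G07660 had 95.6, 78.9, 77.5 and 94.9, and AT1G07820 had 86.9, 87.9, 86.2 and 94.9. The S2 value of AT1G07820 belongs to a summit 444 bp upstream, within AT1G07830, and its peak in the gene had a percentile of 13.8 there. AT3G53730 had 56.0, 42.7, 41.8 and 61.3. AT5G59690 had 58.1, 30.8 and 54.1 at S0, S4 and S8 and no peak at S2, and its summits lay in the 3'UTR, 541 to 640 bp from the TSS of a 745 bp gene. AT5G59970 had peaks at S2 and S4 with fold enrichments of 2.82 and 2.44, but their summits lay 655 and 687 bp upstream within GAF1, and none covered the H4 gene. AT3G45930 had a peak at S4 and S8, both at a percentile near 44 (44.3 and 44.4), and AT3G46320 had none at any stage.

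Part of the H4 signal lay on sequence that copies share. Reads that aligned to as many as 10 sites had been retained by the authors at a single site, and H4 copies share long identical stretches. The 2 longest shared stretches are printed to show what such reads could hold. AT3G45930 (chr3:16883377-16883536, plus strand) and AT3G46320 (chr3:17020208-17020367, minus strand) share 160 bp in their 5' part. The summits of AT3G45930 at S4 and S8 lay just past the end of this stretch, 229 and 258 bp from the TSS, and the part of shared reads in the difference between the genes was not tested. AT1G07660 (chr1:2369446-2369582, plus strand) and AT1G07820 (chr1:2421376-2421512, minus strand) share 137 bp that begin 613 and 554 bp from their TSSs.
AT3G45930 and AT3G46320: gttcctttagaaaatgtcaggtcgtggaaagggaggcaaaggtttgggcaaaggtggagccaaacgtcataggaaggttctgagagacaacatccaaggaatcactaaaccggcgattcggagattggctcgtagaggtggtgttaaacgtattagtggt
AT1G07660 and AT1G07820: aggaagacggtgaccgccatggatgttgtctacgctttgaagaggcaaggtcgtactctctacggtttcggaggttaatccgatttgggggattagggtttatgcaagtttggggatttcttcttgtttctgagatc
Within 100 bp of the summit of AT1G07660, 51.2 to 75.3% of the 32-mers occur more than once in the genome. At AT1G07820 the share was 47.6 to 71.2% where its strongest peak lay in the gene, and the in-gene peak of S2 had 74.1%. At AT3G45930 the share was 55.9%. Without peaks on repeated sequence, 12, 12, 12 and 11 replication-type genes kept a peak at S0, S2, S4 and S8, and the variant genes, which had no peak on repeated sequence, stayed at 8.

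The canonical H2A genes were the only replication-type group that had no peak at S8. Of the 4 genes, 3, 2, 1 and 0 had a peak in the order of the stages, and no gene had one at more than 2 stages. All protein-coding genes stood at 43.8, 34.5, 36.4 and 36.6%, and whether these 4 genes differed from them was not tested. HTA2 had a percentile of 54.8 at S0 only. RAT5 (HTA1, a gene named for its need in Agrobacterium transformation) had 31.8 at S0 and 17.3 at S2. HTA13 had 22.8 at S0 and 20.8 at S4, and HTA10 had 26.1 at S2 only, in a peak of 1571 bp that ran 806 bp past its end into bHLH115. At S0 a peak covered 850 of the 936 bp of HTA10 with its summit on bHLH115, and at S8 a peak reached 45 bp into HTA13. All peaks of this group but those of HTA2 and RAT5 at S0 had percentiles between 17.3 and 26.1. The 4 proteins share 92.4 to 95.4% of their residues.

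Under the 1 kb rule, each H2A variant group had some copies marked at every stage and others at none. Of the H2A.Z genes, HTA9 (AT1G52740, chr1:19645236-19646485, plus strand) had percentiles of 64.1, 75.2, 88.8 and 80.3 with summits 271 to 365 bp from the TSS, whereas HTA4, HTA8 and HTA11 had no peak at any stage. All 4 genes are 1250 to 1709 bp long, so they did not differ in being over 1 kb. Of the H2A.W genes, HTA7 had 62.3, 76.3, 75.7 and 61.3, HTA12 had 13.4, 18.6, 47.6 and 82.8, and HTA6 had none. HTA12 thus held a higher place in each list than in the list before, and its fold enrichments were 2.49, 2.65, 2.85 and 3.77. Its peaks of 323 to 582 bp lay at the 5' end and covered at most 29.2% of this 1992 bp gene. The H2B gene AT5G02570, which lies inside HTA12 on the other strand, had no peak. Of the H2A.X genes, H2AXA (HTA5) had a percentile of 54.5 at S0 and from 1.51 (S2) to 4.57 (S8) at the later stages, where it was among the weakest peaks of the lists, and GAMMA-H2AX (HTA3), whose protein shares 98.6% of its residues with that of H2AXA, had none. The summits of H2AXA also lay within 1 kb upstream of the neighbouring gene AT1G08890 at every stage.

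Of the 10 H2B genes, 4, 3, 4 and 5 had a peak at S0, S2, S4 and S8, and 5 had none at any stage (HTB2, AT2G37470, AT3G53650, AT3G09480 and AT5G02570). Over all protein-coding genes the shares were 43.8, 34.5, 36.4 and 36.6%, with 51.6% at no stage. The H2B share thus lay below that of all genes at S0 and S2 and above it at S4 and S8. Whether the H2B genes differed from all genes was not tested. HTB4 (AT5G59910, chr5:24126877-24128162, plus strand) was the strongest H2B gene, with percentiles of 87.0, 96.7, 93.9 and 93.2 and summits 389 to 489 bp from the TSS. HTB9 had 65.8, 78.6, 51.9 and 91.1, with 27.1 to 35.3% repeated 32-mers around its summits. The values of HTB1 and HTB11 came largely from neighbours. HTB1 had 34.2, 4.26, 69.7 and 61.1, but at S0, S4 and S8 the summit lay 468 to 530 bp upstream within PAI1, a gene of tryptophan synthesis, on sequence with 81.2 to 86.5% repeated 32-mers. The peak inside HTB1 itself had percentiles of 16.4, 4.26, 13.8 and 46.4. HTB11 had fold enrichments of 2.52, 2.67 and 3.25 at S0, S4 and S8, with summits 653 to 793 bp upstream within RPS15AD, a ribosomal protein gene, and none of these peaks reached HTB11. At S2 a peak covered 652 of its 748 bp with a summit 1084 bp from the TSS, past the end of the gene. AT2G28720 had a peak at S8 only, at 20.6. The H2B.8 gene AT1G08170 had none.

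The linker genes had mostly weak peaks. AT1G06760 had percentiles of 8.61, 15.3 and 7.82 at S0, S2 and S4 and no peak at S8, in peaks of 1125 to 1248 bp that covered 89.0 to 96.7% of the gene. AT2G30620 had 5.63, 61.6 and 66.9 at S0, S2 and S8 and no peak at S4, with summits 922 to 971 bp from the TSS in its last exon. HIS1-3 had no peak at any stage.

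Over the 91 pairs of a gene and a stage with a peak, the strongest summit lay a median of 401 bp from the TSS, 306 bp for replication-type and 431 bp for variant genes, against 359 bp over all protein-coding genes. The summit stood at a median of 36.6% of the gene's length, and the peak covered a median of 66.1% of the gene, against 14.4% and 27.1% over all genes and 26.5% and 61.1% over genes of at most 1 kb. The peaks themselves had a median width of 677 bp, against 759 bp over all genes. Of the 91 summits, 53 lay in coding exons, 23 in introns, 4 in the 3'UTR and 10 upstream, and 1 lay in HTA12 outside the transcript with the longest coding sequence. The 10 upstream summits stand against 43.4% of summits upstream for genes of at most 1 kb and 15.1% for all genes.

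**Figure D4:**
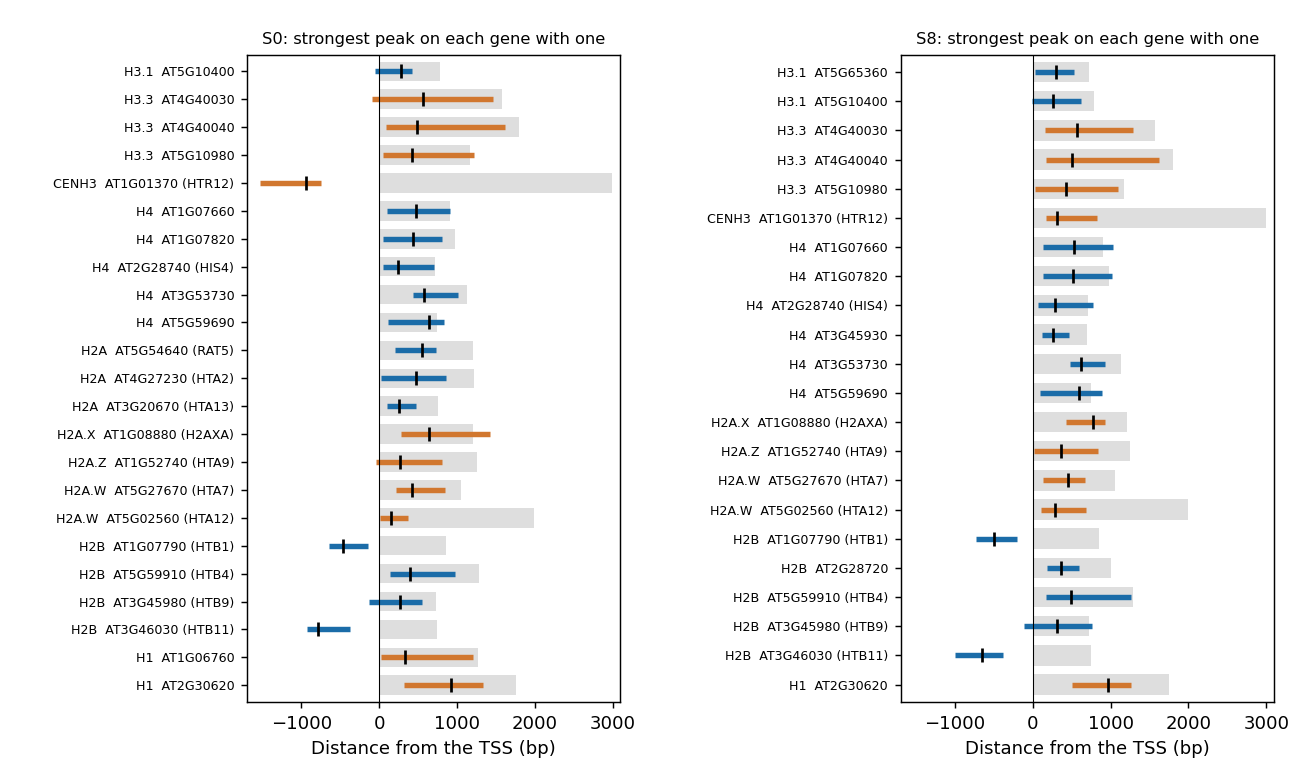
Strongest H3K27ac peak on each histone gene with a peak at S0 (left) and S8 (right), as distance from the TSS in bp (horizontal axis). Grey bars show the gene, coloured lines the peak (blue for replication-type genes, orange for variant and linker genes) and black ticks the summit. Most summits lay inside the gene, and those of HTB1 and HTB11 lay upstream on neighbouring genes at both stages.

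The median percentile of marked replication-type genes was 56.0, 42.7, 43.0 and 61.3 at S0, S2, S4 and S8, and that of marked variant genes 65.2, 59.7, 82.2 and 78.8, while single genes ranged from 4.26 to 96.7 and from 1.51 to 99.5. The medians over all protein-coding genes with a peak were 54.1, 52.1, 51.9 and 52.5. Of the 10 replication-type genes with a peak at both S0 and S8, 6 had a higher percentile at S8, and of the 8 such variant genes 4 did. Over all protein-coding genes with both peaks, 3779 of 9308 did.

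Histone assembly and exchange factors were examined as the partners of these proteins, with a list of 24 genes. Of these, 17, 11, 16 and 13 had a peak at S0, S2, S4 and S8, 9 had one at all 4 stages and 4 at none (the CAF-1 subunit FAS1, which brings H3.1 to replicated DNA, UBN2, NRP1 and the FACT subunit SPT16). The shares were 70.8, 45.8, 66.7 and 54.2% at the 4 stages, against 43.8, 34.5, 36.4 and 36.6% of all protein-coding genes, with 37.5% at all 4 stages against 26.7% and 16.7% at none against 51.6%. These shares were not matched for gene length, and all genes over 1 kb stood nearer, at 49.4, 38.9, 41.0 and 41.3%. The SWR1 complex, which exchanges H2A for H2A.Z, was marked at every stage in all 4 subunits listed. ARP6 had percentiles of 93.2, 82.6, 78.1 and 86.7. PIE1, SEF and SWC2 had values between 25.1 and 92.0. The summits of PIE1 lay 421, 552 and 483 bp upstream of its TSS at S0, S2 and S8. The other genes with the highest means over the stages were AT4G37210, listed among H3-H4 carriers, with 96.2, 96.4, 95.4 and 82.6, and UBN1, of the HIR complex that brings H3.3 to DNA, with 62.9, 75.2, 88.5 and 95.5 at summits 154 to 318 bp upstream of its TSS. CAF-1 had weaker marks. FAS2 had a peak at S0 only, with a summit 939 bp upstream, and MSI1 had 29.2, 3.02, 43.2 and 4.20. At S4 and S8 the summits of MSI1 lay 385 and 337 bp upstream. Of the factors with a peak at some stages, HIRA had one at S0, S2 and S4 (43.6, 9.56 and 12.6), CABIN1 (28.4) and NRP2 (14.6) at S0, ATRX (48.0 and 16.4) and KNL2 (34.8 and 9.11) at S0 and S4, ASF1A (46.5, 12.6 and 37.1) and NAP1;2 (36.5, 1.67 and 0.796) at S0, S4 and S8, NAP1;3 at S2 (37.7), and SSRP1 (7.53 and 9.85) and DDM1 (30.0 and 37.1) at S4 and S8. Both DDM1 summits lay upstream of its TSS, by 518 and 561 bp. Counting only summits inside the gene left 6 factors with a peak at all 4 stages.

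**Figure D5:**
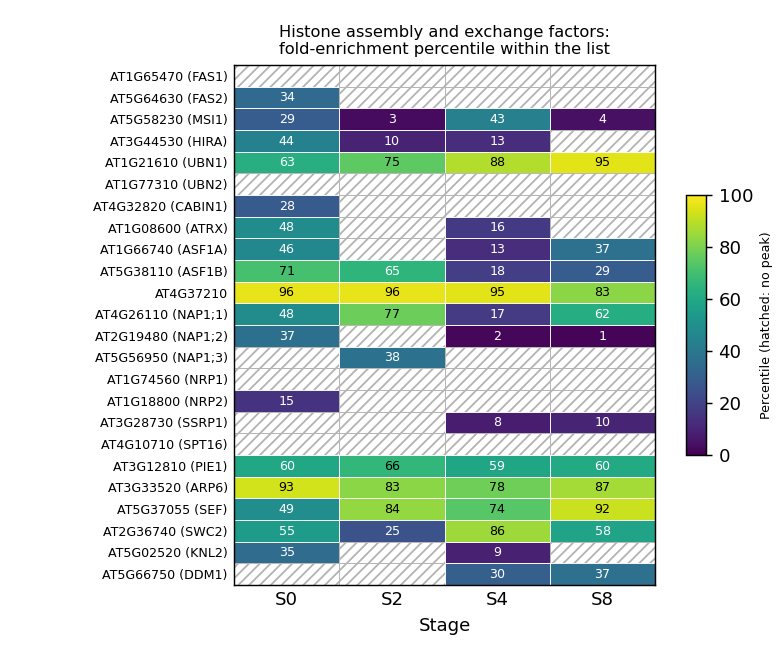
Percentile of fold enrichment within the list of its stage (colour and printed number) for the strongest H3K27ac peak of 24 histone assembly and exchange factors at S0, S2, S4 and S8; hatched cells had no peak. AT4G37210, ARP6 and UBN1 had the highest means over the stages, and FAS1, UBN2, NRP1 and SPT16 had no peak.

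The tissue labels were checked against marker genes. Of the 5 meristem genes, STM, ANT and AP1 had peaks at S0, that of AP1 at a percentile of 0.276, LFY had none at S0 and peaks at S2, S4 and S8, and UFO had none at any stage. STM had none at S4 and S8. Of the 4 organ identity genes, AP3 and SEP3 had a peak at S8 only, and AG and PI had none at any stage. The markers of root hairs, male gametes and seed storage, 7 genes in all, had no peak at any stage, as had 51.6% of all protein-coding genes. Since UFO, AG and PI had none either, the absence of a peak on these 7 genes says little about the tissue.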

How the data were processed

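H3K27ac was profiled by ChIP-seq in 2 libraries per stage, with 2 input libraries. Per the methods and the processing notes, the authors aligned reads with Bowtie 1.1.2 to TAIR10, retained reads with no more than 10 alignments at a single site, discarded duplicates with Picard and called peaks with MACS2 2.1.0 on the pooled libraries of a stage against the combined inputs, keeping peaks with an irreproducible discovery rate of at most 0.1. Reads of a Ler line were thus placed on a Columbia genome, and nearly identical histone copies could trade reads. The deposited lists give for each peak a −log10 p and a fold enrichment, the ratio of the pooled ChIP to the control at its summit. Both are the authors' values and served to rank peaks by percentile inside their list. Fold enrichments were also printed for some genes. They were not adjusted between the lists, whose median fold enrichments were 3.21, 3.07, 2.90 and 2.92 in the order of the stages.

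Gene models came from RefSeq (TAIR10.1), whose nuclear chromosomes have the lengths of TAIR10. The assignment rule was checked on made-up genes with planted peaks. Repeated sequence was the share of 32-mers within 100 bp of a summit found at further sites of the genome, with a limit of 50%. Motifs were searched on both strands from 250 bp before to 50 bp after the TSS, and proteins were translated from the annotated coding sequence and aligned. No test was made. Every member could be named, with values by stage planned for genes absent from some or all lists and for the strongest and weakest gene of each subtype. Outside this rule, values by stage were also given for AT5G10400, AT5G10980, HIS4, AT1G07660, AT3G53730, HTB1 and HTB9. For the assembly factors, values by stage were given for genes without a peak at some stage, for the 3 with the highest mean and, outside this rule, for MSI1. The members, lists and rules were chosen with earlier results of these data known. Python 3.11.15, NumPy 2.4.6, pandas 2.3.3, SciPy 1.17.1, Biopython 1.88 and matplotlib 3.10.9 were used.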

Additional observations from a re-analysis of the deposited data

How the results depend on the processing

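The limits are those of pooled lists: no value per library, unknown depth and no input track. No paired analysis was possible because the lists hold no value per replicate, and for the same reason no replicate could be left out. The counts of genes with a peak stayed within 1.5 times of the reported ones with summits in the gene only, 2 kb upstream, any overlap with the gene, the nearest TSS, no repeated sequence, H2A.X counted as replication type, and a reciprocal overlap of 50% between stages. When each list was reduced to its 50% of peaks with the best −log10 p, replication-type genes fell to 7, 6 and 7 at S0, S2 and S4 and 5 at all 4 stages, variant genes to 4 at S2 and 4 at all 4 stages, and assembly factors to 8, 7, 6 and 7 at S0, S2, S4 and S8 and 4 at all 4 stages, as a shorter list must give fewer genes. Counting only summits on no other protein-coding gene, a setting added after the data were seen, left 6, 5, 6 and 7 replication-type genes and 4 at all 4 stages, 5 variant genes at each stage and at all 4 stages, and 7 and 8 assembly factors at S2 and S8 and 5 at all 4 stages. With a rank of 0 for genes without a peak, the median percentile was 0, 0, 8.24 and 0 for replication-type genes and 6.68, 0.755, 1.498 and 2.28 for variant genes at S0, S2, S4 and S8, since about as many genes of each class lacked a peak as had one. Taking each peak's midpoint instead of its summit moved the median distance from the TSS from 401 to 470 bp.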
